A study of Mus musculus with 4 samples.

Results

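PyMT-A cells were derived from a mammary tumour of the FVB/NJ mouse strain and are described here as they were with only the empty retrovirus PMSCV-puro. All results come from the 2 libraries of these vector cells, chosen by their labels out of 4 libraries in the series. They are called vector 1 and vector 2 below. Where 2 values are joined by "and" they are in that order, unless the sentence names other genes, sets, scalings or quartiles for them. The other 2 libraries came from PyMT-A cells infected with a Jagged1 retrovirus and were not compared here. The line was cultured in DMEM with 10% FBS and 1% P/S, RNA was taken up in Trizol, and poly(A) RNA was sequenced. A gene was called detected when it had at least 10 counts in both vector libraries. This held for 12490 of 33677 gene symbols, or 37.1% of the table, and for 10929 of 17762 protein-coding symbols (61.5%).

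PyMT stands for polyoma virus middle T antigen, a membrane-bound viral protein with no enzyme activity of its own. Middle T assembles cellular signalling proteins, among them SRC family kinases, the adaptor SHC, phosphatidylinositol 3-kinase and protein phosphatase 2A, and its expression from a mammary promoter gives mice mammary carcinomas. The mammary epithelium has an inner luminal layer, marked by keratins 8 and 18, and an outer basal layer, marked by keratins 5 and 14, p63 and smooth muscle actin. Reads of the middle T transgene were not analysed here. The labels do not say whether the line is 1 clone, or whether the libraries came from separate cultures.

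These cells expressed the luminal keratin pair Krt8 and Krt18 together with Krt7 and Krt14, and expressed E-cadherin and Epcam. Krt5, Krt19, the progesterone receptor gene Pgr and the casein gene Csn2 had at most 1 count in a library. Their highest receptor transcripts per length were integrins and the kinase Axl. Their highest cytokine and growth factor transcripts per length were osteopontin (Spp1), Cxcl5, Mif, Csf3 and Cxcl1. Interferons, Il6, Tnf and all but 1 of the chemokine receptors stayed below the threshold of detection.

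Levels are counts per 1000000 counts of the library (CPM). Means are followed by ± SD over the 2 libraries. Where different genes are compared, CPM was divided by the summed exon length of the gene in kilobases (CPM per kb), which 11192 detected genes had. Function lists held 862 symbols of the table, and 524 of them (60.8%) were detected. The median detected gene had 32.7 CPM, with quartiles of 9.53 and 81.3, and 8.07 CPM per kb. There is 1 group and no contrast, so no test was run. In bulk RNA, fewer cells with a transcript and less transcript per cell cannot be told apart.

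The libraries held 15609720 and 12136227 counts, of which 19349 and 19868 genes took at least 1. A count of 3, used as the limit of detection, equals 0.192 and 0.247 CPM. Log2 CPM of detected genes correlated across genes at a Pearson r of 0.981 and a Spearman rho of 0.984, a description over genes that share the same 2 libraries. The chi-square between their counts was 21.8 per degree of freedom, above sampling noise, so they were not treated as 1 library. This does not show that they came from separate cultures. Counts of 18S ribosomal RNA (Rn18s-rs5) made up 0.982% of vector 1 (exact 95% binomial interval 0.977 to 0.987%) and 0.0735% of vector 2 (0.0720 to 0.0751%). Mitochondrial transcripts took 1.42% and 2.12%. These intervals, like all those below, cover counting error only.

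Keratins form filaments from 1 type I and 1 type II chain, and the chains present are used to recognise epithelial layers. Of 43 mouse keratin symbols in the table, 10 were detected, a share of 23.3% against the 61.5% of protein-coding symbols. The simple-epithelial type II keratin Krt7 had 2371 and 1539.8 CPM, and Krt8, of the same class, had 1126 and 942 CPM. The type I chain Krt18, which pairs with keratin 8, had 904 and 883 CPM. Vector 1 was the higher library for Krt7, by a ratio of 1.54 (95% counting interval 1.51 to 1.57), and for Krt18 the counting interval of the ratio included 1, at 1.02 (95% counting interval 0.998 to 1.05). Per length the order was Krt18 (622 ± 10.1 CPM per kb), Krt8 (528 ± 66.7) and Krt7 (277 ± 83.3), with no overlap between the ranges of neighbours. Krt8 and Krt18 stand near each other on chromosome 15, at 101996698 to 102004482 and 102028180 to 102032027 (GRCm38, GENCODE M21), and Krt7 lies on the same chromosome at 101411043 to 101430313.

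Basal keratins gave a divided picture. Krt14, the type I keratin of basal cells, had 439 and 228 CPM and 189.7 ± 85.1 CPM per kb, and vector 1 was higher by a ratio of 1.93 (95% counting interval 1.85 to 2.02). Its usual partner Krt5 had only 0 and 1 counts, which is below the limit of 3 counts in each library. The other basal or stress keratins Krt17 (0 and 2 counts), Krt15 (0 and 3) and Krt6a (6 and 0) were also below 10 counts. Of the basal pair, Krt14 alone was above the limit of detection. The luminal keratin Krt19 was listed at 0 in both libraries. Krt80, an epithelial type II keratin, had 89.7 and 73.9 CPM, while Krt79, Krt16, Krt10, Krt87 and Krt27 lay between 0.705 and 3.14 CPM in each library.

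The start regions of 4 keratin genes are shown because they are those of the luminal pair, of Krt7 and of the basal chain that was near 0. Each holds 250 bases before and 50 after the RefSeq start, on GRCm38.p6. They are chr15:102004293-102004592 on the minus strand for Krt8, chr15:102027966-102028265 on the plus strand for Krt18, chr15:101412153-101412452 on the plus strand for Krt7 and chr15:101712856-101713155 on the minus strand for Krt5. Capitals mark a TATA box (TATAAA) or a GC box (GGGCGG), searched on both strands.
Krt8: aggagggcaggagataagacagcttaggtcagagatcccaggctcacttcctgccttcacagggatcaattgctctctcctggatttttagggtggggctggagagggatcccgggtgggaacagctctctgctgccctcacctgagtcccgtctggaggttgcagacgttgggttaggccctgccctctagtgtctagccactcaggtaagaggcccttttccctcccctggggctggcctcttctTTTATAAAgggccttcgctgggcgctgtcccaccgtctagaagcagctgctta
Krt18: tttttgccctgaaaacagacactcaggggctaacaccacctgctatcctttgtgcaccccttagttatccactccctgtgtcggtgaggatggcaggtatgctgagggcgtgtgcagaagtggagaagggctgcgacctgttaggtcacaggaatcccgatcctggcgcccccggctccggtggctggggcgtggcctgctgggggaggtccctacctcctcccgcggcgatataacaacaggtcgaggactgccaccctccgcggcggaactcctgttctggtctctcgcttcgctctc
Krt7: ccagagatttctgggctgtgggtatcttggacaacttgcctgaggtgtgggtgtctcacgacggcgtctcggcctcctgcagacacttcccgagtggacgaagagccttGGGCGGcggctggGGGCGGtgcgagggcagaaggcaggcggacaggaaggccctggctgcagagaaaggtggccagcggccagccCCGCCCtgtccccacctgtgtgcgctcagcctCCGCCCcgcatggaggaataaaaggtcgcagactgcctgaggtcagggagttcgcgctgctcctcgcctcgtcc
Krt5: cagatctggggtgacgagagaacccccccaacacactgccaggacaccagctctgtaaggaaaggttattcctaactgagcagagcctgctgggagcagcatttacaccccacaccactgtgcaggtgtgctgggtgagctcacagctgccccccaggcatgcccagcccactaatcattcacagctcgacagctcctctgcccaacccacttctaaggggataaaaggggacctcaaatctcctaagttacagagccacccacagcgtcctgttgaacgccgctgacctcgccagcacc
The Krt8 stretch held 2 overlapping TATA box matches, 1 on each strand, and 6 CpG dinucleotides. These matches began at -3 and -1 relative to the RefSeq start and so spanned it. Whether they act as a TATA box was not tested. Krt7 held 4 GC boxes and 21 CpG. The whole Krt7 stretch lies inside the GENCODE M21 span of the gene given above, so the upstream end of that span was not covered. Neither motif was found in Krt18, with 17 CpG, or in Krt5, with 6. Of all 27025 gene promoters of this length in RefSeq, 14.2% held the TATA box and 35.9% the GC box on either strand. Krt8 and Krt5 had the same number of CpG at mean levels of 1034 ± 131 and 0.0412 ± 0.0583 CPM.

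Promoter composition differed between detected and silent genes over the 13652 protein-coding symbols with a RefSeq promoter entry. The 8624 promoters of detected genes had a median of 22 CpG, against 4 in the 2995 promoters of genes at 0 in both libraries. GC boxes stood in 67.3% of the first set and 24.9% of the second, and TATA boxes in 6.31% and 20.9%. These are descriptions of the gene sets with no test.

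Among other filament and plakin genes, 12 of 22 were detected (54.5%), near the 61.5% of protein-coding symbols. The nuclear lamin Lmna had 846 and 676 CPM and Lmnb1 had 275 and 228 CPM. Vimentin (Vim), the filament of mesenchymal cells that cultured carcinoma cells often carry, had 92.3 and 101 CPM, and nestin (Nes) had 114 and 89.2 CPM. Per length Vim (20.3 ± 1.22 CPM per kb) lay more than an order of magnitude below Krt8 and Krt18. The desmosomal anchor Dsp (451 and 385 CPM), plectin (Plec, 347 and 315) and envoplakin (Evpl, 292 and 202) tie filaments to junctions and membranes. The cornified envelope genes Lor, Ivl, Flg, Sprr1a and Sprr1b were each below 10 counts in at least 1 library.

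**Figure D1:**
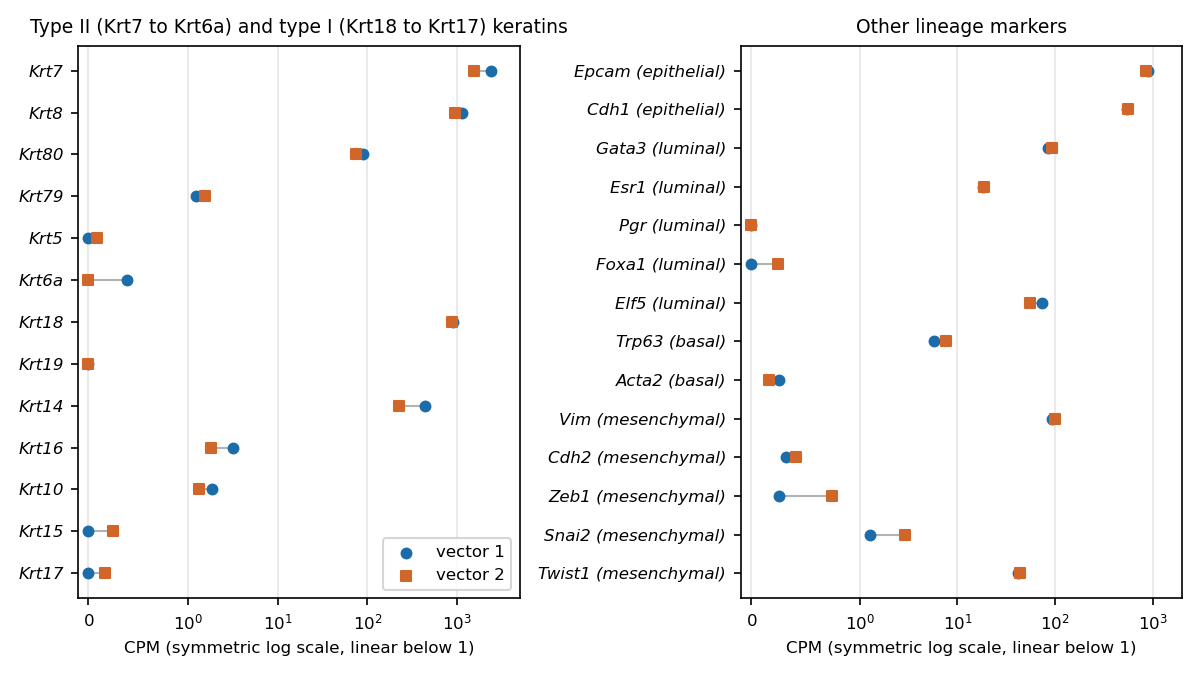
CPM of keratin genes (left) and of other lineage markers (right) in vector 1 (circles) and vector 2 (squares) on a symmetric log axis that is linear below 1 CPM. Krt7, Krt8, Krt18 and Krt14 lie above 200 CPM in both libraries, while Krt5, Krt17 and Krt19 lie at or near 0.

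Genes of epithelial adhesion and splicing were nearly all detected, with 16 of 17 adhesion and tight junction genes and 12 of 12 epithelial transcription and splicing factors. The share of protein-coding symbols was 61.5%. Epcam, an epithelial surface adhesion protein, had 893 and 846 CPM and the highest level per length of its list (396 ± 15 CPM per kb). E-cadherin (Cdh1) had 545 and 563 CPM, Cd24a 366 and 420.0 and plakoglobin (Jup) 336 and 369 CPM. Claudin 3 (Cldn3), a tight junction protein, had 234 ± 24.0 CPM per kb, and the ranges of Cdh1 (121 ± 2.85) and Cldn4 (108 ± 35.1) overlapped. Among the factors, the epithelial splicing regulator Esrp1 led with 293 and 302 CPM, also per length. Ehf had 223 and 260.2 CPM, Grhl2, which maintains epithelial junctions, 115 and 120.5 CPM and Klf4 94.7 and 86.2 CPM. Of the 16 detected adhesion genes 8 were higher in vector 1, against 5350 of all 12490 detected genes.

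Mesenchymal genes were mixed, with 9 of 19 detected (47.4%, against the 61.5% of protein-coding symbols). Fibronectin (Fn1), a matrix protein, had 777 and 1484 CPM and 96.7 ± 42.8 CPM per kb. Tenascin C (Tnc) had 83.7 and 133 CPM, and the transcription factor Twist1 42.2 and 43.3 CPM. Other factors that repress E-cadherin were lower than Twist1, also per length. Snai1 had 10.8 and 7.66 CPM, Snai2 1.28 and 2.88 CPM and Zeb2 0.705 and 1.73 CPM. Zeb1 (4 and 9 counts) and N-cadherin (Cdh2, 5 and 5 counts) did not reach 10 counts in both libraries. The fibrillar collagen genes Col1a2 and Col3a1 and the receptor gene Pdgfrb were listed at 0. Of the 9 detected genes 7 were higher in vector 2 (6 with TMM or DESeq2 scaling), against 57.2% of all detected genes (49.8 and 44.2% with those scalings), among them Sparc (1.79 and 5.52 CPM). The summed level of 8 fibroblast markers was also higher there (4.48 and 7.33 CPM), and its part in these values was not tested.

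Luminal and basal regulators were both present in part. The luminal list had 10 of 14 members detected (71.4%, against the 61.5% of protein-coding symbols). Sox9, found in luminal progenitors, had 304 and 290.3 CPM, Gata3, the main luminal regulator, 84.5 and 92.4 CPM, and Elf5, the factor of alveolar progenitors, 72.7 and 55.2 CPM. Foxa1 had 0 and 3 counts and Kit 1 and 2 counts. In the basal list 7 of 14 were detected (50%). Both lists are small, and their shares lay on either side of the 61.5%. Itgb4, part of the hemidesmosome, had 1147 and 1304 CPM, and its partner Itga6 368 and 323 CPM. Trp63, which encodes p63, had 5.70 and 7.66 CPM, and smooth muscle actin (Acta2) 4 and 2 counts. The contractile genes Myh11, Cnn1 and Tagln were likewise under 10 counts in both libraries.

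Milk genes were detected for 5 of 9 symbols in the table (55.6%), near the 61.5% of protein-coding symbols. Lactoferrin (Ltf), an iron-binding milk and defence protein, had 536 and 941 CPM, and the lipid droplet protein Plin2 488 and 478 CPM. Mfge8 had 244 and 289 CPM and Btn1a1 21.7 and 26.6 CPM. Csn2, Wap and Lalba, the main products of lactation, were listed at 0 in both libraries, and Csn3 had 1.09 and 4.86 CPM.

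Of 259 receptor symbols in the table, 152 were detected (58.7%), near the 61.5% of protein-coding symbols. Their shares by family ran from 1 of 21 chemokine receptors to 6 of 7 interferon and IL-10 class receptors, leaving aside families of under 5 genes.

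**Figure D2:**
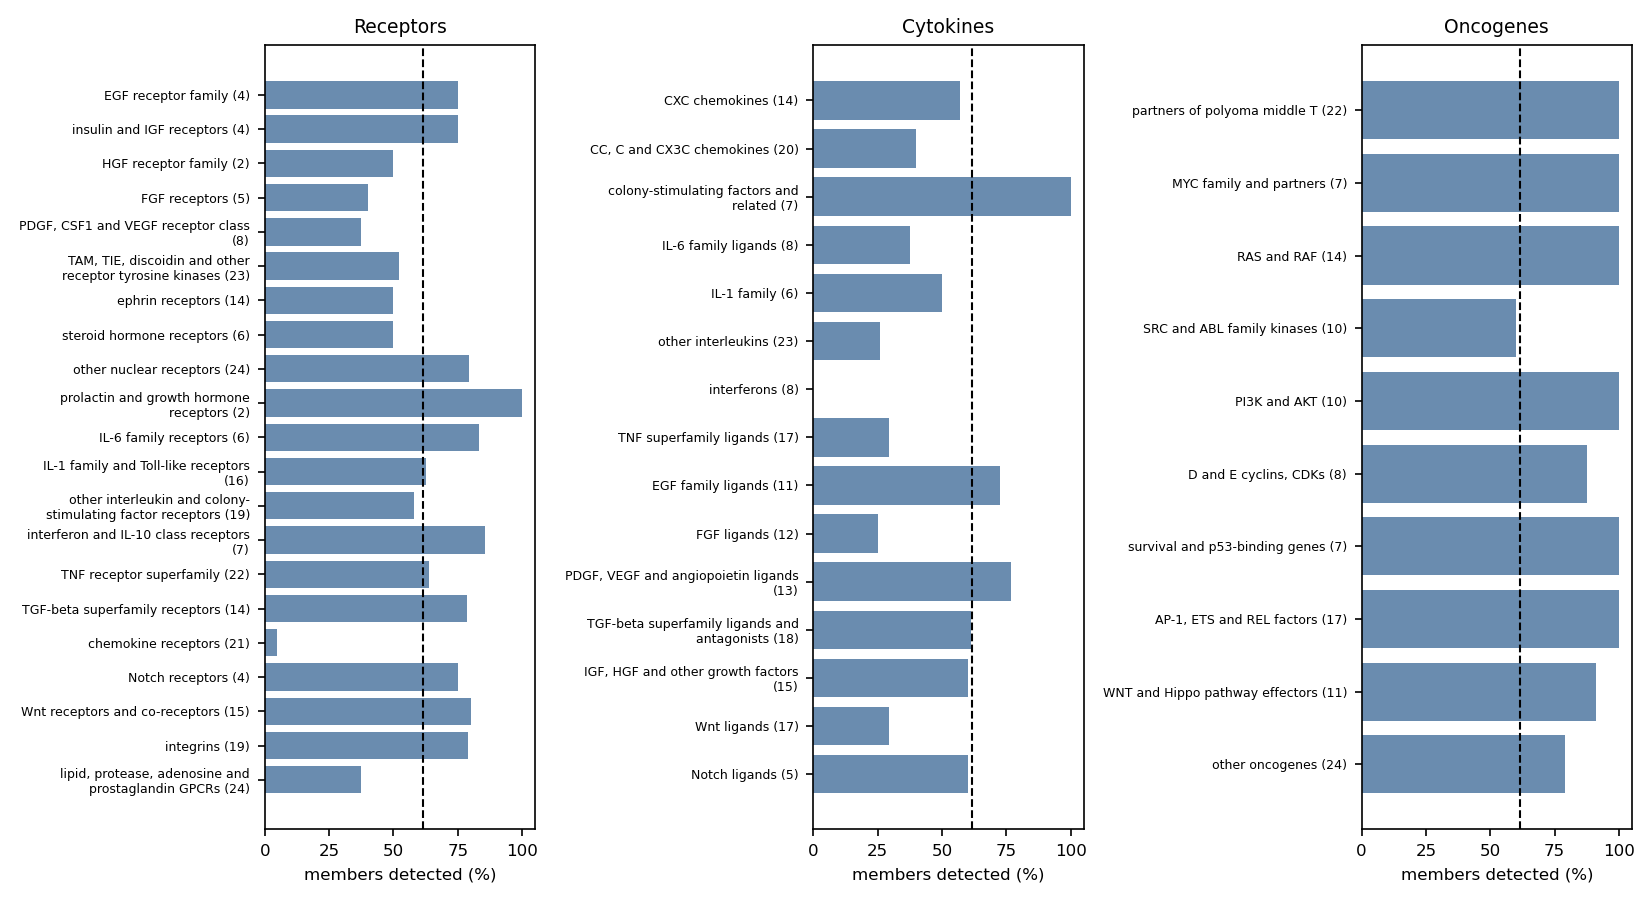
Percent of the genes in the table with at least 10 counts in both vector libraries, by family, for receptors, cytokines and oncogenes. The number of genes is in brackets and the dashed line is the 61.5% of all protein-coding symbols. Interferons show no bar (0 of 8), and the partners of middle T fill the axis (22 of 22).

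Growth factor receptors of the tyrosine kinase class were led per length by Axl, the receptor of the ligand Gas6, with 696 and 661 CPM and 135 ± 5.06 CPM per kb. Epha2, an ephrin receptor, followed with 268 and 292 CPM and 59.9 ± 3.61 CPM per kb, and then Met, the receptor of hepatocyte growth factor, with 373 and 347 CPM and 46.9 ± 2.40 CPM per kb. Ephb4 stood beside Met with 46.9 ± 4.60 CPM per kb. In the EGF receptor family the order was Erbb3 (172 and 149 CPM), Erbb2 (129 and 98.5) and Egfr (65.1 and 91.0), and it was the same per length, where their ranges did not overlap. Erbb2 and Erbb3 form the most active pair of that family. Erbb4 had 1 and 0 counts. Fgfr1 had 305 and 327 CPM, whereas Fgfr2 had 9 and 36 counts and Fgfr3 and Fgfr4 at most 1. Insr (78.5 and 76.0 CPM), Igf1r (82.1 and 78.1) and the scavenger Igf2r (290.1 and 309) were close in the 2 libraries.

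**Figure D3:**
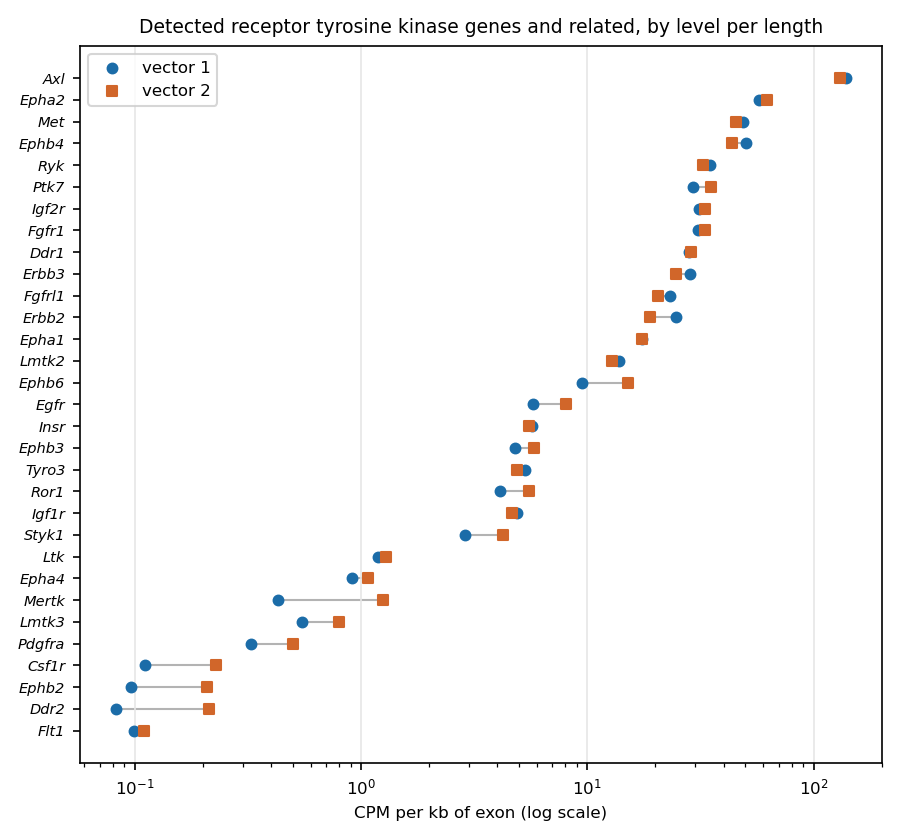
CPM per kb of exon, on a log axis, of the 31 detected receptor tyrosine kinase genes and relatives in vector 1 (circles) and vector 2 (squares). Axl leads in both libraries, and the widest gaps between the libraries are among genes near or below 1 CPM per kb.

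Receptors of the stromal and vascular kind were low. Pdgfra had 3.27 and 5.03 CPM, Flt1 1.35 and 1.48 CPM and Csf1r, the receptor of macrophage colony-stimulating factor, 0.641 and 1.32 CPM. Csf1r passed the threshold with 10 and 16 counts, and Flt4, with 5 and 15 counts, did not. Kdr had 0 and 1 counts.

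Hormone receptors were led by the glucocorticoid receptor Nr3c1 (75.5 and 104 CPM), which was above oestrogen receptor alpha Esr1 (18.1 and 18.5 CPM) per length as well. The progesterone receptor Pgr, a target of oestrogen receptor, was listed at 0 in both libraries, as was Esr2. Prolactin and growth hormone receptors were detected, and both were over 2-fold higher in vector 2: Prlr had 29.1 and 62.9 CPM and Ghr 24.8 and 49.8 CPM. Among other nuclear receptors 19 of 24 were detected (79.2%, against 61.5% of protein-coding symbols). Rarg (175 and 190.1 CPM), a retinoic acid receptor, and Vdr (146 and 150.3), the vitamin D receptor, led the list.

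Of 70 symbols in 5 families of innate and cytokine receptors 46 were detected (65.7%), near the 61.5% of protein-coding symbols. The double-stranded RNA sensor Tlr3 had 287 and 372 CPM, and Tlr2, a sensor of bacterial lipoproteins, 155 and 165 CPM. The shared signalling chain Il6st had 231 and 216 CPM against 21.7 and 16.8 for Il6ra and 1.22 and 0.989 for Lifr, and it was also the highest of the 3 per length. Both chains of the type I interferon receptor were detected, with 87.1 and 83.6 CPM for Ifnar1, as were both of the interferon gamma receptor, with 76.2 and 84.1 CPM for Ifngr1. In the TNF receptor superfamily Tnfrsf12a, the receptor of TWEAK, led with 197 and 204 CPM and 104 ± 2.26 CPM per kb. Ltbr had 89.8 and 95.4 CPM and Tnfrsf1a, the main TNF receptor, 85.9 and 82.8 CPM. Osteoprotegerin (Tnfrsf11b), a decoy receptor, was far apart between libraries, with 1.54 and 12.7 CPM. Il13ra2, another decoy, had 3.84 and 17.2 CPM.

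Developmental signalling receptors were mostly present. Notch2 had 162 and 176 CPM, Notch1 151 and 185 CPM and Notch3 24.3 and 44.7 CPM, each higher in vector 2, while Notch4 had 10 and 2 counts. Of TGF-beta superfamily receptors 11 of 14 were detected (78.6%). Tgfbr2 had 148 and 121 CPM, Tgfbr1 95.6 and 127 CPM and Bmpr1a 117 and 159 CPM. Of Wnt receptors and co-receptors 12 of 15 were detected (80%). The share of protein-coding symbols was 61.5%, and these lists are small. Lrp5 had 266 and 227 CPM and Lgr6 152 and 122 CPM. Lgr5 had 0 and 2 counts.

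Integrins, which anchor cells to matrix, had the highest summed CPM of the receptor families, 4425 and 4397 CPM over 19 symbols. Of these, 15 were detected (78.9%, against 61.5% of protein-coding symbols). Itga3, a laminin receptor chain, had 1368 and 1122 CPM, Itgb4 1147 and 1304 CPM and the common beta chain Itgb1 905 and 846 CPM. Per length Itga3 (218 ± 30.5 CPM per kb), Itgb1 (214 ± 10.3) and Itgb4 (175 ± 15.8) headed all receptors, and the ranges of the first 2 overlapped. The leukocyte chains Itga4 and Itgb7 had 0 and 0 counts and 2 and 3 counts.

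Chemokine receptors had the lowest share detected of the receptor families, at 4.76% against 61.5% of protein-coding symbols. Of 21 symbols only Ackr3, a scavenger of Cxcl12, passed, with 4.10 and 2.47 CPM. Cxcr2, Ccr1, Ccr6, Ccr7 and Cx3cr1 were among 11 listed at 0 in both libraries. Cxcr4 had 0 and 1 counts.

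Of 194 cytokine and growth factor symbols, 89 were detected (45.9%), below the 61.5% of protein-coding symbols. The highest was osteopontin, Spp1, a secreted integrin ligand, with 1751 and 1791 CPM and 1075 ± 17.5 CPM per kb. Mif, a macrophage-regulating cytokine, had 266 and 251 CPM and 347 ± 14.2 CPM per kb. The matrix-associated growth regulators Ccn1 and Ccn2 had 233 and 212 CPM and 134 and 245 CPM.

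The highest chemokines per length were 2 that attract neutrophils. Cxcl5 had 1071 and 1354 CPM and 651 ± 107 CPM per kb. Cxcl1, of the same receptor group, had 313 and 331 CPM and 172 ± 6.57 CPM per kb. Cxcl16, a membrane-bound attractant of T cells, had 251 and 249.9 CPM, and the interferon-induced Cxcl10 127 and 91.2 CPM. The ranges of these 4 genes per length did not overlap. Cxcl2 had 5.32 and 4.53 CPM, and Cxcl12 fell short of the threshold with 6 and 20 counts. In the CC, C and CX3C families 8 of 20 were detected (40%, against 61.5% of protein-coding symbols), all under 50 CPM. Cx3cl1 had 31.3 and 47.5 CPM and Ccl20 24.9 and 37.7 CPM. Ccl2, an attractant of monocytes, had 22.9 and 17.1 CPM and Ccl5 9.35 and 9.23 CPM. Ccl3, Ccl17, Ccl22 and Ccl11 were listed at 0 in both libraries.

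The start region of Cxcl1 is shown as an example of a chemokine gene with NF-kB type letters. The stretch is chr5:90890995-90891294 on the plus strand of GRCm38.p6. Capitals mark GGGAA, any 3 bases, then CC, on either strand, and 5.67% of all promoters of this length held this motif.
Cxcl1: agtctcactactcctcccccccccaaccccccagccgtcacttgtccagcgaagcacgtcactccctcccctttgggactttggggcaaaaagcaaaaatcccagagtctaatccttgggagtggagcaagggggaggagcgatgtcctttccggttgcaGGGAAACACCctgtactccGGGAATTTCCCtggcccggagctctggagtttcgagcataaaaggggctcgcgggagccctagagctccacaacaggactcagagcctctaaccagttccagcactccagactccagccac
The 3 matches included an overlapping pair on opposite strands. Csf1 held 1 match, GGGAAAGTCC, in its own start region (chr3:107760420-107760719, minus strand), besides 2 GC boxes. The share was 6.97% in detected protein-coding genes and 4.27% in those at 0 in both libraries.

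All 7 colony-stimulating factors and relatives were detected, against 61.5% of protein-coding symbols, but the list is small. Csf1, which supports macrophages, had 365 and 578 CPM and 89.2 ± 28.4 CPM per kb. Csf3, the granulocyte factor, had 438 and 316 CPM and 267 ± 61.4 CPM per kb. Their libraries went in opposite directions, with a ratio of vector 1 to vector 2 of 0.632 (95% counting interval 0.610 to 0.655) for Csf1 and 1.39 (95% counting interval 1.33 to 1.44) for Csf3. The stem cell factor Kitl had 26.3 and 60.5 CPM, and Csf2 was low at 1.67 and 4.04 CPM. Il34, the other ligand of the Csf1 receptor, had 9.16 and 8.49 CPM.

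Interleukins, IL-6 family ligands, interferons and TNF superfamily ligands had smaller shares detected than the 61.5% of protein-coding symbols. By list the shares ran from 0% of interferons to 50% of the IL-1 family, and the lists are small. Lif, of the IL-6 family, had 312 and 306 CPM, and Clcf1 70.7 and 67.7 CPM, while Il6 had 1 and 2 counts and Osm was listed at 0. Il1a had 34.7 and 51.5 CPM, and Il1b 3 and 10 counts. Among 23 other interleukins 6 were detected, the highest in CPM being Il24 (19.0 and 18.8) and Il23a (16.5 and 19.2), and 13 were listed at 0 in both. No interferon of 8 was detected; Ifnb1 had 10 and 5 counts and Ifng 0 and 0. Of TNF superfamily ligands 5 of 17 were detected, none above 10 CPM. Tnf had 2 and 2 counts.

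Of the EGF family ligands 8 of 11 were detected (72.7%, against 61.5% of protein-coding symbols). Areg, the EGF receptor ligand of mammary duct growth, had 86.3 and 89.5 CPM, Hbegf 70.7 and 68.5 CPM and Tgfa 50.7 and 57.1 CPM. These values differed little between libraries. In the PDGF and VEGF list 10 of 13 were detected (76.9%), with Vegfa at 118 and 144 CPM and Pdgfb at 76.1 and 98.3 CPM. This list and that of the EGF family are small. Activin A chain Inhba had 206 and 317 CPM and its antagonist Fst 227 and 209 CPM. Tgfb3 (64.6 and 64.8 CPM) and Tgfb1 (50.5 and 55.4) were above Tgfb2 (21.4 and 20.2), also per length. Wnt7b stood out among 17 Wnt ligands with 414 and 421 CPM, followed by Wnt5b (71.6 and 57.5) and Wnt10a (43.9 and 31.0), the same order as per length, and 9 were listed at 0. Among Notch ligands Dll1 had 40.6 and 31.7 CPM, Jag2 28.6 and 25.0 CPM and Jag1 10.2 and 9.23 CPM, so the gene that the study introduced by virus in its other line was the lowest of the 3 detected ligands here, also per length (1.67 ± 0.116 CPM per kb).

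Ligands were set against receptors for 54 known pairs. Both partners were detected in 21 pairs, only the ligand in 17, only the receptor in 11 and neither in 5. Pairs with both partners above 50 CPM in mean included Areg, Hbegf and Tgfa with Egfr, and Tgfb1 with Tgfbr2. Pairs with only the ligand detected included Cxcl5 and Cxcl1 with Cxcr2, Csf3 with Csf3r (0 and 2 counts), Cxcl16 with Cxcr6 and Vegfa with Kdr, whereas Flt1, the other Vegfa receptor of the list, was detected. For Csf1 the receptor was detected at 0.979 ± 0.479 CPM in mean. Lifr, Il1r1 and Flt1, in other pairs with both partners, were also low at 1.10, 1.77 and 1.41 CPM in mean. Some genes, such as Egfr and Notch1, stood in more than 1 pair, so the pairs are not separate counts. Pairs with only the receptor detected included Met, whose ligand Hgf had 2 and 1 counts, Igf1r (Igf1, 2 and 2 counts; Igf2 was not analysed here), Osmr and Tnfrsf12a (Tnfsf12, 8 and 7 counts). Gas6 with Axl counted as a pair with both partners, but Gas6 had 6.28 and 35.7 CPM.

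**Figure D4:**
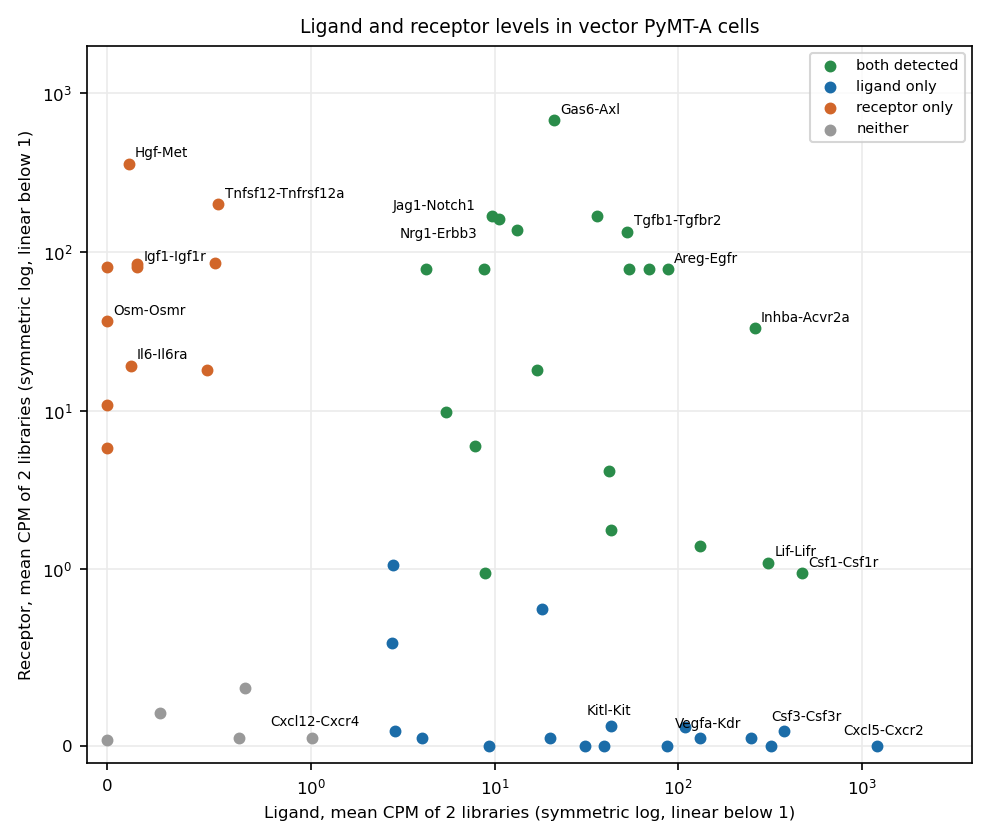
Mean CPM over the 2 vector libraries of the ligand (horizontal) and receptor (vertical) of 54 pairs, on symmetric log axes that are linear below 1 CPM. The 17 pairs with only the ligand detected lie along the bottom, with Cxcl5 and Cxcr2 farthest right, and the 11 with only the receptor detected lie along the left, with Hgf and Met at the top.

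Of 130 oncogene symbols 119 were detected (91.5%), against the 61.5% of protein-coding symbols. All 22 cellular partners of middle T were detected. The 14-3-3 proteins Ywhae (776 and 671 CPM), Ywhaz (571 and 599.9) and Ywhag (622 and 532), which bind phosphorylated middle T, had the highest CPM, and the adaptor Grb2 had 465 and 368 CPM. Per length Ywhae led (282 ± 29.0 CPM per kb), and the ranges of Grb2 (143 ± 23.4) and Ywhaz (142 ± 4.93) overlapped. Phosphatase 2A subunits Ppp2ca and Ppp2r1a had 299 and 244 CPM and 253 and 245 CPM. Of the SRC family kinases that middle T binds, Src had 129 and 138 CPM, Fyn 60.2 and 62.5 CPM and Yes1 34.1 and 61.1 CPM. Per length Src (30.5 ± 1.45 CPM per kb) was above Fyn (14.1 ± 0.376) and Yes1 (6.35 ± 2.54). Shc1 had 142 and 132 CPM, the phosphatidylinositol 3-kinase chains Pik3r1 and Pik3ca 102 and 147 CPM and 79.6 and 89.5 CPM. Of 10 other kinases of the SRC and ABL families and relatives 6 were detected. They included Lyn (51.9 and 62.1 CPM) and Lck (2.18 and 1.65 CPM), known from blood cells, while Fgr had 1 and 1 counts and Blk was listed at 0.

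Downstream genes were likewise present. Akt1 had 493 and 407 CPM and was above Akt2 (178 and 149.8 CPM), also per length. Nras (188 and 201 CPM) and Hras (115 and 90.2) were both detected, at 36.5 ± 1.69 and 27.5 ± 4.68 CPM per kb. Cyclin D1 (Ccnd1), the D cyclin most tied to growth of the mammary epithelium, had 911 and 852 CPM, Ccnd3 156 and 116 CPM and Ccnd2 no count in either library. Its partner Cdk4 had 326 and 337 CPM. Myc had 176 and 143 CPM, above Mycn (9.80 and 13.8) and Mycl (3.27 and 5.11) on both scales. Beta-catenin (Ctnnb1) had 699 and 752 CPM and Yap1 244 and 227 CPM. All 17 AP-1, ETS and REL factors were detected, against 61.5% of protein-coding symbols. Nfkb1 had 322 and 280.4 CPM and Junb, the highest of them per length, 263 and 258 CPM. Survival genes included Bcl2l1 (294 and 332 CPM), Birc5 (285 and 242) and Mcl1 (189 and 166).

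Of 51 tumour suppressor symbols 48 were detected, a share of 94.1% against the 61.5% of protein-coding symbols, and the 3 others (Cdkn1c, Trp73 and Runx3) were listed at 0. Trp53 had 184 and 211 CPM. Its target Cdkn1a, an inhibitor of cyclin-dependent kinases, had 54.8 and 126 CPM, over 2-fold higher in vector 2. Mdm2 and Mdm4, which restrain p53, were also higher there, with 109 and 213 CPM and 96.7 and 197 CPM. Of the 12 detected genes of the p53 and RB list 8 were higher in vector 1 and 4 in vector 2, also with TMM or DESeq2 scaling. Over all detected genes 57.2% were higher in vector 2 (49.8 and 44.2% with those scalings). Cdkn2a, which encodes p16 and p19Arf and is lost in many cultured lines, was present at 75.1 and 56.9 CPM; the counts do not separate its 2 products. Nf2 had 180.5 and 213 CPM and Rb1 12.6 and 22.4 CPM.

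All 18 genes of S phase and mitosis were detected, against 61.5% of protein-coding symbols. Top2a had 663 and 532 CPM, Mki67 409.9 and 492 CPM, Pcna 339 and 259 CPM and the helicase subunit Mcm6 318 and 232 CPM. In this list 15 of 18 were higher in vector 1 by library total. The same held for 5350 of all 12490 detected genes (6270 with TMM and 6972 with DESeq2 scaling). The median log2 ratio of the list was 0.33, against -0.055 over all detected genes. Mki67, Kif11 and Bub1 were the 3 that were higher in vector 2.

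On the surface that immune cells read, all 7 class I genes of the table were detected, against 61.5% of protein-coding symbols. H2-D1 had 2529 and 2121 CPM, the light chain B2m 1009 and 1215 CPM and H2-K1 998 and 930.2 CPM. B2m led per length (1293 ± 169.6 CPM per kb). The peptide loading genes Tapbp and Tap1 had 505 and 475 CPM and 175 and 169 CPM. Reads of class I genes of similar sequence, such as H2-D1, H2-K1 and H2-Q4, may have been split or dropped in counting, so their levels are uncertain. Class II was near 0: H2-Ab1 had 6 and 5 counts, its activator Ciita 5 and 2 counts and H2-Aa 0 and 0, and only H2-DMa passed, at 2.88 and 1.65 CPM. Among ligands that restrain T cells or phagocytes 10 of 16 were detected (62.5%), near the 61.5% of protein-coding symbols. Lgals9 had 366 and 329 CPM, Cd47, the signal against phagocytosis, 252 and 224 CPM, Nectin2 102 and 124 CPM and Cd276 99.8 and 102 CPM. Cd274, which encodes PD-L1, had 12.4 and 12.9 CPM, and Pdcd1lg2, Cd80, Cd86 and Ido1 were listed at 0.

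Markers of other cell types were at or near 0, and their part in the low-level values above was not tested. Of 48 such symbols in the table, only Cd68, Pdgfra, Col1a1 and Mitf (4 genes) were detected, each under 6 CPM. The 13 leukocyte markers summed to 1.09 CPM in vector 1 and 9.39 CPM in vector 2; Ptprc, which all leukocytes carry, had 1 and 1 counts, while Lyz2 had 0 and 71 and Adgre1 0 and 6. Endothelial markers summed to 0.769 and 2.97 CPM, with Cdh5 at 6 and 32 counts and Pecam1 at 4 and 1. Of the fibroblast markers Col1a2, Col3a1, Dcn and Lum were at 0. The 4 adipocyte markers of the table were at 0. Xist, the RNA of the inactive X chromosome, had 357 and 1575 CPM, and the Y-linked genes Ddx3y and Uty had no count.

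Of the 15 genes highest in mean CPM in the whole table Eef1a1, a translation elongation factor, led with 9875 and 10719 CPM, followed by mt-Co1 (6288 and 8901) and the histone gene H3f3b (7039.8 and 5702). The ribosomal RNA row Rn18s-rs5, whose shares are given above, was the fourth. Eef2 had 4513 and 4568 CPM, Actg1 4226 and 4219.9 CPM and Hsp90ab1 3513 and 3242 CPM. The glycolytic enzyme Pkm had 3847 and 2617 CPM. The 15 highest also held Rnf213, a very large ubiquitin ligase with 4587 and 4146 CPM, and lipocalin 2 (Lcn2), an iron-scavenging defence protein, with 2143 and 3349 CPM. Per length Rnf213 had 259 ± 18.5 CPM per kb and Lcn2 1047 ± 325. Eef1a1 (4130.3 ± 239 CPM per kb) and mt-Co1 (4915 ± 1196) were among the first 3 per length as well, behind only Gm23935, an annotated miRNA of 0.057 kb that differed widely between libraries (2045 and 311 CPM). In all, 64 genes reached 1000 CPM in both libraries and took 12.8% and 13.1% of the reads, and 9012 reached 10 CPM.

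Between the libraries, 72 of the 12490 detected genes (0.576%) were over 2-fold higher in vector 1 and 639 (5.12%) over 2-fold higher in vector 2. With 1 library against 1 this has no replicate check and no test. Of the 524 detected list members, 1 (Adora1, 8.71 and 3.46 CPM) was over 2-fold higher in vector 1 and 30 in vector 2, or 0.191% and 5.73%, near the shares over all genes. Of genes with at least 50 counts in both, those farthest toward vector 2 were Gas6, RP23-442M18.1, Alpl (11.5 and 51.7 CPM), Il13ra2 and Xist. Those farthest toward vector 1 were Rn18s-rs5, Gm24270, Gm23935, Lars2 (924 and 190.3 CPM) and Id4 (23.3 and 5.44 CPM). Their ratios of vector 1 to vector 2 were 13.4, 8.23, 6.58, 4.86 and 4.29, in that order. Whether ribosomal RNA reads were counted in rows other than Rn18s-rs5 was not tested. The long nuclear RNAs Neat1 (415 and 765 CPM) and Malat1 (189 and 406) were also higher in vector 2.

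The gap between the libraries moved with properties of the transcripts. Detected protein-coding genes were divided into 5 groups of about equal size by each property, the first being GC content of the longest transcript. The group with the lowest GC had a median log2 ratio of vector 1 to vector 2 of -0.26, and the group with the highest 0.036. By exon length the medians ran from 0.042 in the shortest group to -0.14 in the longest. In the group with the lowest mean CPM 14.0% of genes were over 2-fold apart, against 0.915% in that with the highest. The group with the lowest mean CPM reached down to 0.732 CPM, and the part of counting error in its share was not tested. The ribosomal RNA share given above also differed between the libraries. The part of these properties in single genes was not tested.

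**Figure D5:**
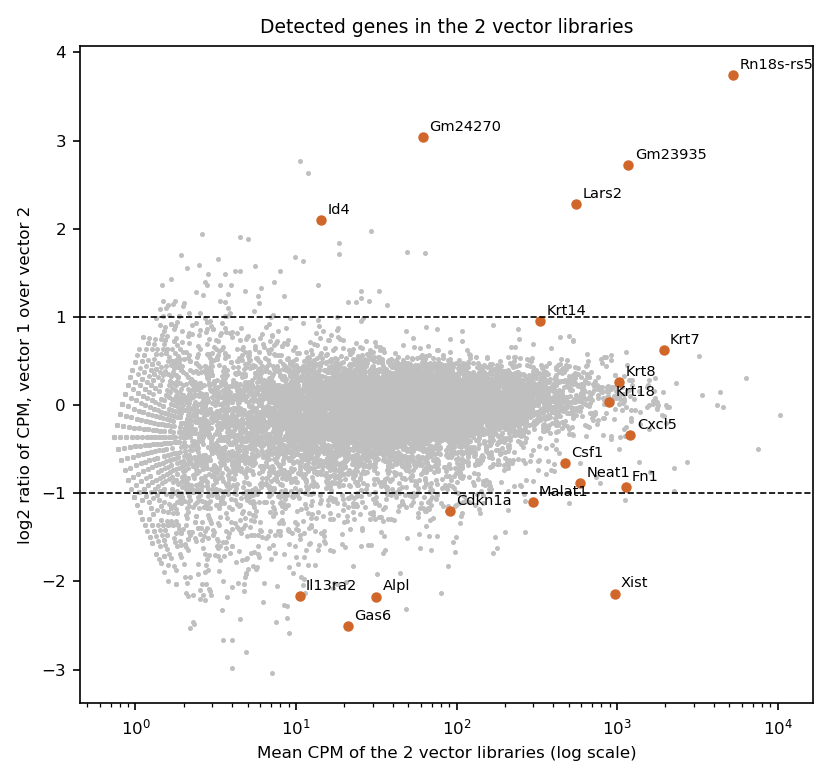
Log2 ratio of CPM in vector 1 over vector 2 (vertical) against mean CPM on a log axis (horizontal) for the 12490 detected genes, grey points, with genes named in the text in orange and dashed lines at 2-fold. Krt8 and Krt18 lie near 0, Krt14 just inside the upper line, and Xist, Gas6, Alpl and Il13ra2 below the lower line.

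Levels of neighbouring genes were often too close to rank. Within the families 459 neighbouring pairs were ordered by CPM per kb, and in 168 of them the ranges of the 2 libraries overlapped, so their order was not beyond the spread. The share was lowest in keratins and filaments (1 of 14 pairs) and highest in proliferation genes (14 of 17), leaving aside the markers of other cell types, which gave 1 pair. Of the 459 pairs 320 kept the same order in CPM without division by length.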

How the data were processed

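The deposited values were raw counts of reads per gene symbol, 1 column per library, neither normalised nor pooled. The submitters' processing notes name STAR 2.6.0c, featureCounts 1.6.2 and the builds mm10 and GRCm38. No source used here gives the annotation release or strand setting, so overlapping and antisense genes could not be separated. Libraries were grouped by their titles. Counts were divided by the library total (Python 3.11.15, pandas 2.3.3), and exon lengths came from GENCODE M21. Ratios between libraries carry exact conditional intervals at 95% (scipy 1.17.1). The calculation was tested on simulated data.

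The 902 list members in 75 families were chosen with earlier results of these data known. Of these, 862 were in the table, 5 under an older symbol, and 40 were not analysed here. Named were up to 4 leading members per family, members over 2-fold apart, lineage markers, the 15 genes highest in CPM, the 10 highest per kb and the 5 most extreme ratios in each direction; other names were chosen after their values were seen. In 27 names the symbol had become a date, and these were not named. Alternatives changed the count minimum, the scaling (edgeR 4.0.16, DESeq2 1.42.0, scale factors only), the library total and the libraries kept.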

Additional observations from a re-analysis of the deposited data

How the results depend on the processing

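No paired analysis was possible because only 1 group was described. The genes detected in vector cells numbered 13671 with a minimum of 5 counts, 11565 with 20 and 11974 with 1 CPM, and from 12883 to 13047 when either library was left out. The genes more than 2-fold apart between the vector libraries depended on the filter. With no filter and a pseudocount of 1 they numbered 5239 (1016 higher in vector 1, 4223 in vector 2), and with a minimum of 50 counts 312 (23 and 289). With TMM factors the split was 85 and 549, and with DESeq2 size factors 98 and 490. Detected markers of other cell types numbered 2 with a minimum of 20 counts and from 4 to 7 when either library was left out. Leaving the ribosomal RNA row and mitochondrial genes out of the total raised named genes by 2.24 to 2.41%. Of 62 families with at least 2 detected members, 43 had the same leading gene in CPM and in CPM per kb, and 42 per length of the longest transcript, an alternative chosen after seeing the data, as were the scalings of the genes higher in vector 2. With 2 libraries an SD has little precision.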
